A study of Mus musculus with 14 samples.

Results

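The mitochondrial ribosomal protein genes were followed in mouse oocytes with and without Mff. Members were the genes listed in both deposited count tables whose symbol begins with Mrpl or Mrps followed by a digit, without pseudogenes. This gave 78 genes of the 18507 in either table, 49 named for the large subunit (Mrpl) and 29 for the small subunit (Mrps). In the assembled ribosome 51 of them sit in the large and 26 in the small subunit, because Mrps30 and Mrps18a are large-subunit proteins, and Mrps36 is now known as a component of the 2-oxoglutarate dehydrogenase complex.

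RNA was sequenced from oocytes at the germinal vesicle (GV) stage, arrested in the first meiotic prophase, and from ovulated oocytes. The control genotype (WT) was Mff fl/fl and the conditional knockout (CKO) was Mff fl/fl; Gdf9-Cre, so all groups shared the floxed allele. Gdf9 is an oocyte gene whose promoter drives Cre from early follicles on, and Mff encodes an outer-membrane receptor for the fission GTPase DRP1. Each genotype had 4 libraries at the GV stage and 3 from ovulated oocytes. The labels class the libraries as single-cell transcriptomes, but the sources used here do not give the age of the mice or how many oocytes and animals stood behind a library. P-values therefore measure only the spread between these libraries, which may be technical.

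Mitochondrial ribosomes sit at the inner mitochondrial membrane and translate the few respiratory-chain and ATP synthase subunits that the mitochondrial genome encodes. Their RNA is made in the organelle, while all of their proteins are encoded in the nucleus, made in the cytosol and imported. The small subunit decodes the mRNA and the large subunit joins amino acids and holds the exit tunnel. A full-grown oocyte stops transcription before meiosis resumes, so its stored mRNAs are afterwards kept, degraded, or given longer or shorter poly(A) tails. The libraries were made with SMART-SeqII, a method that primes on poly(A) tails, so loss of an mRNA and shortening of its tail cannot be told apart here, nor can less RNA per oocyte and fewer oocytes.

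Library totals were 26575571 to 28847408 counts. Mff fell to 34.1 ± 6.2 CPM in GV CKO from 655 ± 209 CPM in GV WT (SD, n = 4 each), and to 52.8 ± 14.1 from 523 ± 278 CPM in ovulated oocytes (SD, n = 3 each), with no overlap. At the GV stage the 100 most abundant genes took 35.2% to 42.4% of counts in 3 libraries (WT 2, CKO 1, CKO 2) against 48.2% to 51.1% in the other 5. In ovulated oocytes they took 35.4% in WT 3 and 25% in CKO 2, against 29.5% to 30.5% in the other 4. Oocyte markers summed to 28960 to 43190 CPM in GV and 20675 to 27283 CPM in ovulated libraries, without overlap, and blood, immune and stromal markers to 23.7 to 45.9 and 55.0 to 140 CPM, also without overlap. Granulosa and cumulus markers summed to 53.6 to 146 CPM in GV and 83.6 to 115 CPM in ovulated libraries. In ovulated CKO against WT, 6 of the 15 oocyte markers were called higher and 0 lower (edgeR, median log2 fold change 0.55), beside 6.44% and 1.4% of all genes. In the ovulated libraries 9 to 12 of the 21 granulosa markers were at 0 or not listed, Fshr was at most 0.335 CPM, and the listed sum was mostly Cyp19a1. Nr5a2 and Kitl reached 17.8 and 14.6 CPM there. In GV CKO against WT, 11 of 14 granulosa markers tested lay above 0 and 3 below, and 0 were called. Their median log2 fold change was 0.46, beside 0.03 for all genes. Of the 15 blood, immune and stromal markers 5 to 11 were at 0 or not listed, and the sum was mostly Pecam1. The part of such RNA in the results was not tested.

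Nearly all members were detected in GV oocytes. The median member stood at 41.8 FPKM in GV WT, with 14 members at 100 FPKM or more and 2 below 1 FPKM. FPKM is scaled to length, so levels of different genes can be set side by side on it, though only roughly. The length implied by count and FPKM can differ from that of the annotated transcript. It was 249 against 478 bases for Mrpl33, 288 against 638 for Mrps18c and 914 against 764 for Mrpl20. The highest was Mrps33, a small-subunit protein without a bacterial counterpart, at 334, 621, 406 and 364 FPKM in the 4 GV WT libraries. Mrpl32, a large-subunit protein matured by the m-AAA protease, followed at 285, 385, 331 and 312 FPKM, and Mrps36 at 281, 427, 310 and 279 FPKM. These 3 ranges overlapped, so their order is not fixed by the data. The lowest were Mrps26 at 3.16 ± 0.58 FPKM, Mrps34 at 0.51 ± 0.49 FPKM and Mrpl19 at 0.39 ± 0.11 FPKM (SD, n = 4). The Mrps34 value rests on 5, 21, 1 and 10 counts. Of its 2064 exonic bases 763 are shared with Nme3 on the same strand and 1309 with Mapk8ip3 on the opposite strand, so where its reads were assigned is uncertain.

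In ovulated WT oocytes the median member stood at 8.94 FPKM, and 7 members were below 1 FPKM. Mrps36, Mrpl18, Mrpl32 and Mrps33 then led at 325, 249, 206 and 198 FPKM, with Mrpl18 named after its values were seen. Summed over members, the share of all FPKM was 0.744% to 1.18% in GV WT and 0.410% to 0.451% in ovulated WT, and these ranges did not overlap.

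**Figure D1:**
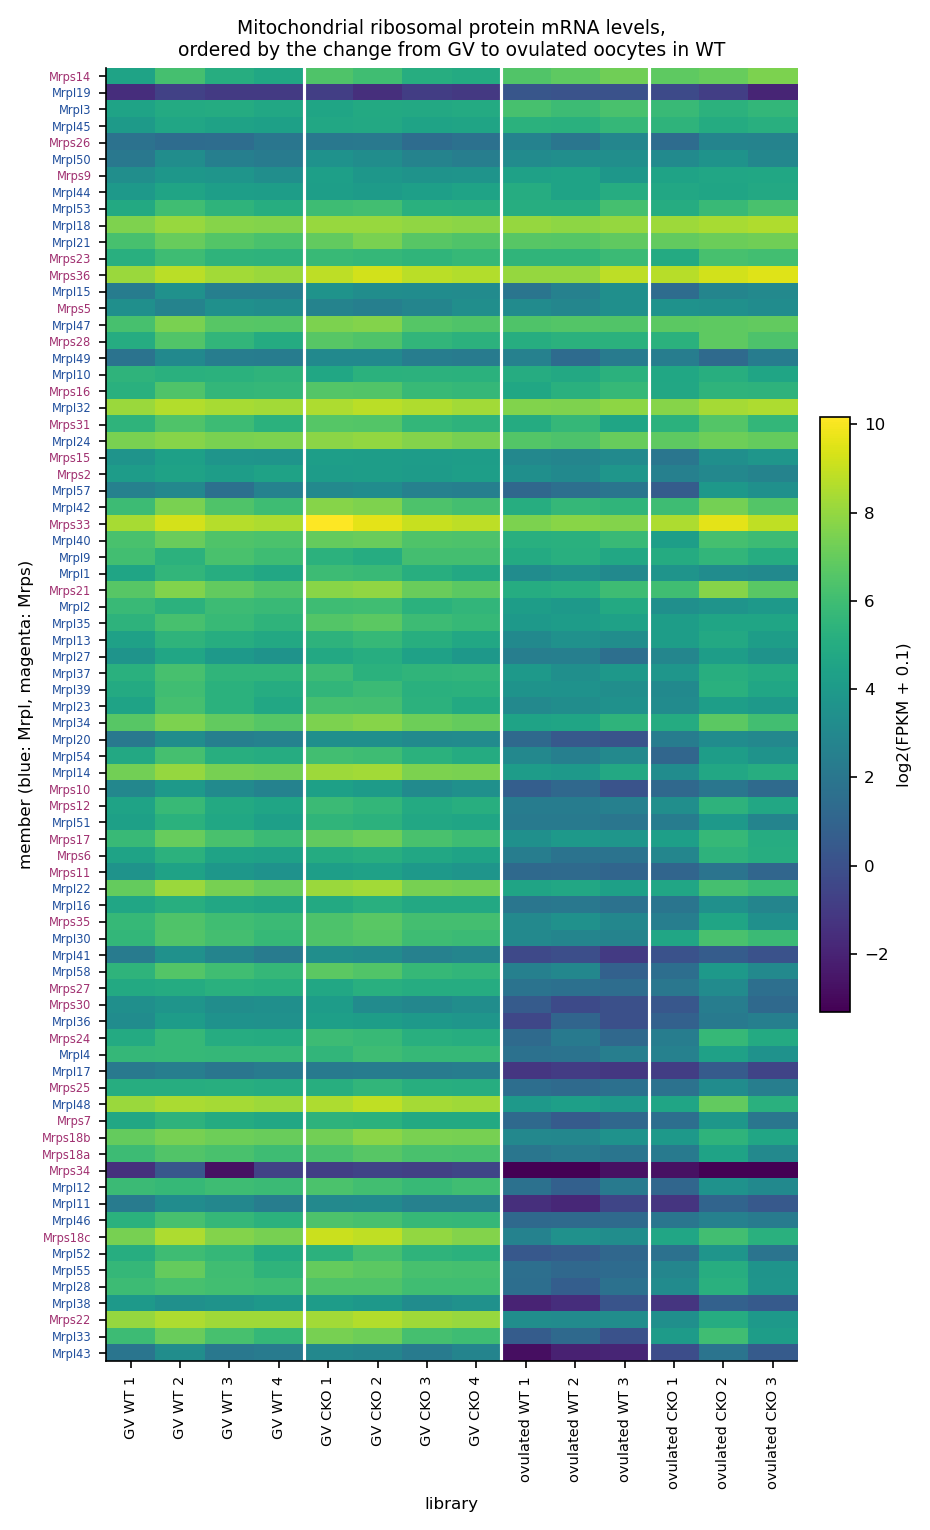
Level of each of the 78 members (rows) in each of the 14 libraries (columns), as log2 of FPKM plus 0.1, ordered by the change from GV to ovulated oocytes in WT, with Mrpl names in blue and Mrps names in magenta. The lower rows are lower in the 3 ovulated WT libraries than in GV WT. Their GV WT levels vary widely, with Mrps22 at 307 FPKM and Mrpl43 at 5.5 FPKM. Mrps36, Mrpl18 and Mrpl32 stay high throughout.

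From GV to ovulated WT oocytes most members fell. Of 78 members tested, 61 fell and 4 rose, while of the 13199 genes tested 66.4% were called, 36.2% lower and 30.3% higher. The median log2 fold change of members was -2.32 and that of all genes -0.17. Of the 49 Mrpl members 39 fell and 3 rose (median -2.30), and of the 29 Mrps members 22 fell and 1 rose (median -2.93).

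The largest falls in the large subunit were of Mrpl43, Mrpl33, Mrpl38 and Mrpl28. Mrpl43, found in mitochondrial but not bacterial ribosomes, had 5.18, 7.89, 4.92 and 6.52 CPM in GV WT and 0.0311, 0.129 and 0.142 CPM in ovulated WT, the latter from 1, 4 and 4 counts. Its log2 fold change was -5.89 (SE 0.56, adjusted p = 1.18e-07, edgeR). Mrpl33, a small protein with a bacterial counterpart, had 19.9, 25.8, 20.6 and 15.3 CPM in GV WT and 0.311, 0.516 and 0.214 CPM in ovulated WT (log2 fold change -5.85, SE 0.53). Mrpl28, also with a bacterial counterpart, went from 72.1, 53.0, 68.5 and 73.6 CPM to 2.08, 1.13 and 2.56 CPM (log2 fold change -5.12, SE 0.44). No GV and ovulated library overlapped for these genes, as for 37.3% of all genes on the lower side. In the small subunit Mrps22, specific to mitochondria, fell most, from 373, 295, 363 and 416 CPM to 8.26, 7.94 and 8.98 CPM (log2 fold change -5.43, SE 0.36, adjusted p = 8.84e-09, edgeR). Mrpl38 fell by 5.22 on the log2 scale (SE 0.63), with ovulated WT 3 at 1.17 CPM against 0.155 and 0.258 CPM in the other two.

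The 4 members that rose were Mrps14, Mrpl19, Mrpl3 and Mrpl45. Mrps14, a protein of the small subunit's head with a bacterial counterpart, went from 58.5, 108, 74.0 and 64.9 CPM to 139, 176 and 256 CPM (log2 fold change 1.32, SE 0.31, adjusted p = 0.00107, edgeR). Every ovulated WT library lay above every GV WT library, as for 31.4% of all genes. Mrpl3, next to the peptidyl transferase centre, rose by 0.94 (SE 0.26), and Mrpl45, which lies at the exit tunnel and the inner membrane, by 0.61 (SE 0.24, adjusted p = 0.0305, edgeR). Mrpl19 rose by 1.03 (SE 0.41) from 2.16 ± 0.40 CPM to 4.41 ± 0.23 CPM (SD, n = 4 and 3), and 1962 of its 5450 exonic bases are shared with Gcfc2 on the opposite strand. The calls of Mrpl19 and Mrpl45 were lost without ovulated WT 3 (1.03 and 0.42) and without GV WT 1 (0.92 and 0.58) or GV WT 2 (1.01 and 0.55), and that of Mrpl19 also without GV WT 3, ovulated WT 1 or ovulated WT 2. CPM are relative to the library's total, so these changes are relative too.

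Members with short mRNAs made up most of the group. The length implied by count and FPKM was under 1000 bases in 58.4% of 77 members and in 13.1% of the other 10186 genes with a length, and short genes fell more in this comparison. In the class of 750 to 1000 bases, the 17 members had a median log2 fold change of -3.26 and other genes -1.44. In the class of 1000 to 1500 bases, 16 members had -1.88 and other genes -1.08. With the trend on length removed, 44 members fell and 17 rose (median -0.99), beside 4226 lower and 4326 higher of all genes. Of the 65 members called, 11 changed sign, among them Mrpl32, from -1.03 to 0.73, and Mrps33, from -1.46 to 0.16. On the FPKM scale the median of all genes moved from -0.17 to 0.17, and 56 members fell and 6 rose, beside 4028 and 4723 of all genes.

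Sequence elements near the poly(A) tail were read because they are known to set the fate of maternal mRNAs. The cytoplasmic polyadenylation element, bound by CPEB1, directs tail lengthening during maturation. Its letters TTTTAT or TTTTAAT were searched in the last 100 bases of the 3′ UTR on the mRNA strand, in 1 GENCODE M21 transcript per gene with a 3′ UTR of at least 100 bases. They were present in 6 of 54 members that fell, 4 of 13 that were not called and 1 of 4 that rose. Among other genes the shares were 10.7% of 4147 that fell, 19.7% of 4042 not called and 30.3% of 3810 that rose. The median 3′ UTR was 2652 bases in the 4 members that rose and 361.5 bases in those that fell, beside 1482 and 662 bases in other genes. For some members the annotated 3′ UTR was longer than the whole length implied by count and FPKM. It was 2743 against 1311 bases for Mrpl3 and 4401 against 942 bases for Mrps17. The annotated transcript of Mrps14 had 2999 bases against 1802 implied. The bases searched may therefore lie outside the mRNA that was measured. The 5 members with the element that did not fall are shown first, then 3 of the largest falls that have only the hexamer AATAAA or ATTAAA. Each is a 30-base window on the mRNA strand (mm10), with capitals for the element, for the hexamer, and in Mrpl53 for both, which overlap:
Mrps14 (chr1:160202077-160202106, +): gtTTTTATgttctatgcatctacttttcct
Mrpl44 (chr1:79781359-79781388, +): taTTTTATtccctccagctttgaagtgtag
Mrpl49 (chr19:6053671-6053700, -): gtTTTTATtgagctgtatatacaatttaag
Mrpl50 (chr4:49512637-49512666, -): acTTTTATgtatcactttattatttctttt
Mrpl53 (chr6:83109902-83109931, +): ccaagtacaTTTTAATTAAAtatttattgc
Mrpl33 (chr5:31622598-31622627, +): ctggatgctttataggccttAATAAAaaaa
Mrps22 (chr9:98588745-98588774, -): gaacatttaaaaatcttgggATTAAAaggt
Mrpl38 (chr11:116131832-116131861, -): atgtgcctcgattctatgtgAATAAAatac
The members Mrpl44, Mrpl49, Mrpl50 and Mrpl53, chosen by this element, had log2 fold changes of 0.23, -0.67, 0.33 and -0.10. Of the 790 exonic bases of Mrpl53, 695 are shared with Gm42688 on the same strand. The element was also present in Mrpl11, Mrpl51, Mrps2, Mrps10, Mrps17 and Mrps18b, which fell. Differences in its share between the classes were not tested.

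From GV to ovulated CKO oocytes the members fell as well. Of 78, 59 fell and 1 rose (Mrps14, log2 fold change 0.95, SE 0.31, lost without ovulated CKO 3 at 0.66), beside 31.2% and 23.2% of all genes (54.4% in either direction). The median was -1.69 for all members, -1.74 for Mrpl and -1.48 for Mrps. Of the 77 members also tested in ovulated CKO against WT, 56 fell in both genotypes, a count that leaves out Mrps34. The share of all genes that fell in both was not counted. No member was called in opposite directions. Mrps22 fell by 4.60 on the log2 scale (SE 0.35), to 8.51, 22.0 and 12.2 CPM, all below its GV CKO libraries, as for 30.6% of all genes. The member with the lowest fitted value was Mrps34, with 1, 0 and 0 counts in ovulated CKO and 0, 0 and 1 in ovulated WT, too few for a fold change. With the trend on length removed, 40 members fell and 12 rose, beside 3569 lower and 3536 higher of all genes. Of the 60 members called, 7 changed sign, among them Mrpl20, Mrpl30, Mrpl32 and Mrps33.

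In GV oocytes CKO and WT did not differ in any member at adjusted p under 0.05 (edgeR, 77 tested). The share called among all 12298 genes was 0.0163%, with 0.00813% higher and 0.00813% lower. The unadjusted p was under 0.05 for 4 members and for 6.66% of all genes, and DESeq2 and limma also called 0. The median log2 fold change was 0.15, with 0.14 for Mrpl and 0.18 for Mrps, beside 0.03 for all genes, and single members ranged from -0.54 to 0.59. In 4 members every CKO library lay above every WT library, and in 0 every one lay below, against 2.63% and 1.95% of all genes.

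The smallest p-values belonged to Mrps33, Mrpl15 and Mrps18c. Mrps33 had 385, 418, 395 and 406 CPM in WT and 736, 687, 565 and 448 CPM in CKO. These groups did not overlap, at 0.59 log2 units apart (SE 0.22, adjusted p = 0.666, edgeR). Mrpl15, a large-subunit protein with a bacterial counterpart, had 25.2, 33.9, 24.5 and 28.4 CPM in WT and 33.7, 40.9, 44.1 and 38.7 CPM in CKO on the scale of all 14 libraries. Scaled within the stage its groups did not overlap, at a difference of 0.48 log2 units (SE 0.18, adjusted p = 0.689, edgeR). For Mrps18c the difference was 0.59 log2 units (SE 0.23, adjusted p = 0.699, edgeR), and its CKO 4 library at 64.0 CPM lay within the WT range of 60.4 to 79.8 CPM. The members' share of all FPKM was 1.18% in WT 2, 1.31% in CKO 1 and 1.19% in CKO 2, against 0.744% to 0.903% in the other 5 GV libraries. Without those 3 libraries the median was 0.08, and edgeR called 0 members.

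In ovulated oocytes some members were higher in CKO than in WT. Of 77 tested, edgeR called 14 higher and 0 lower, whereas it called 7.84% of the 12010 genes, 6.44% higher and 1.4% lower. DESeq2 called 18 members higher and 2 lower, beside 9.46% and 3.81% of all genes. The unadjusted p was under 0.05 for 35 members and for 23.3% of all genes. The median log2 fold change was 0.71 for all members, for Mrpl (7 of 49 rose) and for Mrps (7 of 28 rose), beside -0.0010 for all genes. Values above 0 were seen in 61 members and below 0 in 16. Every CKO library lay above every WT library in 22 members and below in 4, against 15.8% and 12.7% of all genes. This comparison and the change with stage in WT share the ovulated WT libraries.

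**Figure D2:**
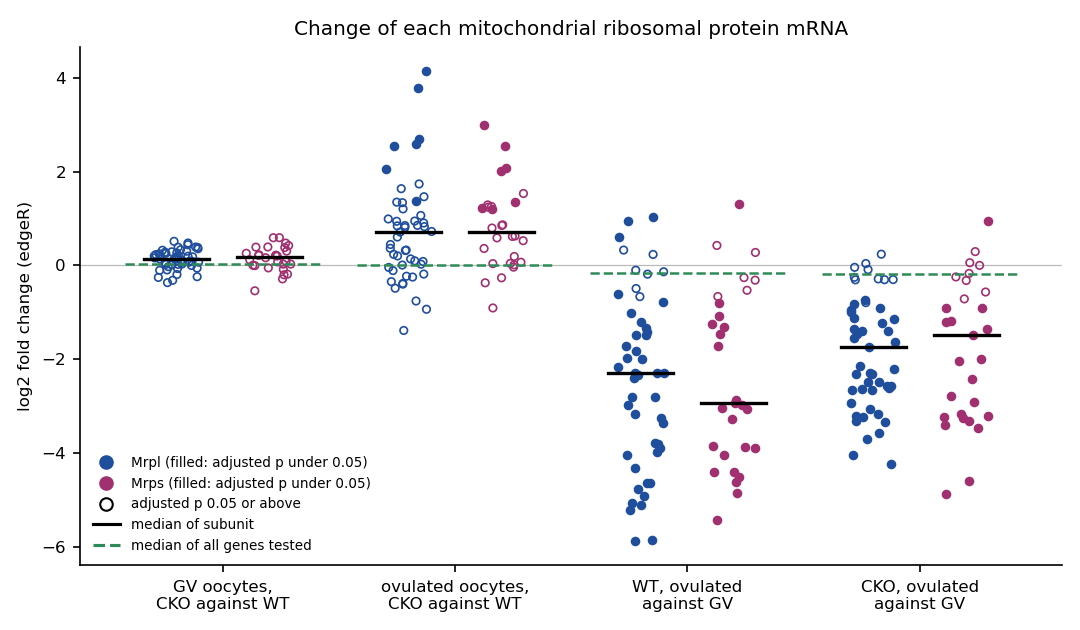
Log2 fold change of each member in the 4 comparisons, Mrpl in blue and Mrps in magenta, filled where adjusted p was under 0.05, with black lines for subunit medians and dashed green lines for the median of all genes tested. In ovulated CKO against WT both subunits have a median of 0.71 and 14 filled points above 0, and in the change with stage most points lie below -1.

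Of the large subunit, Mrpl33, Mrpl28 and Mrpl30 were the 3 members called under all 14 alternative settings. Mrpl33 (chr5:31613939-31622644) had 0.311, 0.516 and 0.214 CPM in WT and 3.52, 11.1 and 3.57 CPM in CKO. Every CKO library lay far above every WT library, and the log2 fold change of 4.15 (SE 0.61, adjusted p = 0.00113, edgeR) was the largest of any member. In WT it lay near the floor, so it passed the filter on low counts only through its CKO libraries. A gene so low in WT could be called only higher. Without WT 3 and CKO 2 it was 3.15. The annotation has 261 of its 7326 exonic bases in common with the transcript Gm43809 on the same strand.

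Mrpl30 (chr1:37890477-37898535) has a bacterial counterpart, L30, and had 3.79, 3.55 and 3.63 CPM in WT and 11.1, 27.9 and 25.6 CPM in CKO. The WT libraries lay close together and all CKO libraries lay above them (log2 fold change 2.59, SE 0.38, adjusted p = 0.00118, edgeR). Mrpl28 (chr17:26123500-26126613) had 2.08, 1.13 and 2.56 CPM in WT and 6.27, 21.5 and 8.86 CPM in CKO (log2 fold change 2.69, SE 0.50, adjusted p = 0.00436, edgeR). Its CKO 2 library stood well above the other two CKO libraries.

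Mrpl43 had 1, 4 and 4 counts in WT and 23, 94 and 36 counts in CKO, which is 3.77 log2 units higher (SE 0.89, adjusted p = 0.0175, edgeR). Like Mrpl33, it passed the filter only through its CKO libraries and could be called only higher. With 507 of its 1520 exonic bases on the opposite strand of Twnk, the mitochondrial DNA helicase gene, reads could be misassigned where strand was not recorded, and for Twnk itself the difference was -0.71 log2 units (adjusted p = 0.323, edgeR). Mrpl55, the counterpart of bacterial L31, had 1.83, 1.48 and 1.71 CPM in WT and 4.35, 17 and 7.39 CPM in CKO (log2 fold change 2.54, SE 0.49). Mrpl20, with a bacterial counterpart, had 1.83, 1.00 and 0.890 CPM against 3.61, 5.84 and 5.80 CPM (log2 fold change 2.06, SE 0.47). Mrpl48, specific to mitochondria, had 14.5, 17.1 and 16.8 CPM against 20.5, 72.3 and 30.4 CPM (log2 fold change 1.38, SE 0.39, adjusted p = 0.0393, edgeR). In each of these genes CKO 2 was the highest library of the group. Mrpl48 was called in 6 of the 14 alternatives, and it shares 708 of 8152 exonic bases with Rab6a on the opposite strand.

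Of the small subunit, Mrps24 rose most. Mrps24, the counterpart of the bacterial protein at the mRNA entry, had 1.65, 3.23 and 1.67 CPM in WT and 3.32, 28.2 and 19.1 CPM in CKO. CKO 1 lay just above WT 2, and the other CKO libraries were far higher (log2 fold change 2.99, SE 0.59, adjusted p = 0.00642, edgeR). Its annotation shares 226 of 1466 exonic bases with Urgcp on the same strand. Mrps6, at the platform of the subunit, had 2.55, 1.71 and 1.78 CPM against 3.35, 16.0 and 15.4 CPM (log2 fold change 2.56, SE 0.52). On the same strand it shares 305 of 1533 exonic bases with Gm49711 and 159 with Slc5a3. The log2 fold change of Slc5a3 was -0.35 (adjusted p = 0.689, edgeR). Mrps12, which lies at the decoding centre, had 2.14, 2.23 and 2.56 CPM against 4.04, 14.1 and 10.6 CPM (log2 fold change 2.08, SE 0.46).

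The bacterial protein S18 has 3 mitochondrial paralogs. Mrps18c and Mrps18b, which sit in the small subunit, rose by 2.02 (SE 0.42) and 1.35 (SE 0.37). Mrps18c had 1.55, 2.90 and 2.49 CPM in WT and 5.96, 13.0 and 8.53 CPM in CKO, without overlap. Mrps18b had 5.99, 5.94 and 9.62 CPM against 11.4, 24.6 and 17.9 CPM, and it shares 638 of 2089 exonic bases with Gm16279 on the opposite strand. The large-subunit paralog Mrps18a had 2.14, 2.71 and 2.24 CPM against 2.43, 9.90 and 4.2 CPM, and with overlapping groups it was not called (log2 fold change 1.26, SE 0.50, adjusted p = 0.139, edgeR). Differences between the paralogs' changes were not tested.

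Mrps17, with a bacterial counterpart, had 8.73, 12.1 and 11.6 CPM against 14.6, 34.0 and 25.3 CPM (log2 fold change 1.22, SE 0.34, adjusted p = 0.040, edgeR), a call kept in 5 of the 14 alternatives. Mrps33, the most abundant member in GV oocytes, had 126, 157 and 153 CPM in WT and 242, 426 and 310 CPM in CKO (log2 fold change 1.2, SE 0.26, adjusted p = 0.0109, edgeR). These CKO libraries lay above all WT libraries of both genes.

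Other members were not called, some of them lower and some higher in CKO. Every CKO library lay below every WT library in 4 members, Mrpl2, Mrps2, Mrpl19 and Mrpl3, as for 12.7% of all genes. Mrpl2 and Mrps2, named here for this, had log2 fold changes of -0.94 and -0.91. Mrpl19 had 4.63, 4.16 and 4.45 CPM in WT and 2.81, 1.5 and 0.631 CPM in CKO, without overlap (log2 fold change -1.39, SE 0.52, adjusted p = 0.117, edgeR). Mrpl3 had 85.7, 70.5 and 95.2 CPM against 58.5, 35.2 and 51.8 CPM, again without overlap (log2 fold change -0.76, SE 0.27, adjusted p = 0.0959, edgeR). Mrps14, Mrps36 and Mrpl32 had log2 fold changes of 0.07 (SE 0.29), 0.62 (SE 0.29) and 0.32 (SE 0.26), and Mrps30 had 1.29 (SE 0.56, adjusted p = 0.183, edgeR).

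**Figure D3:**
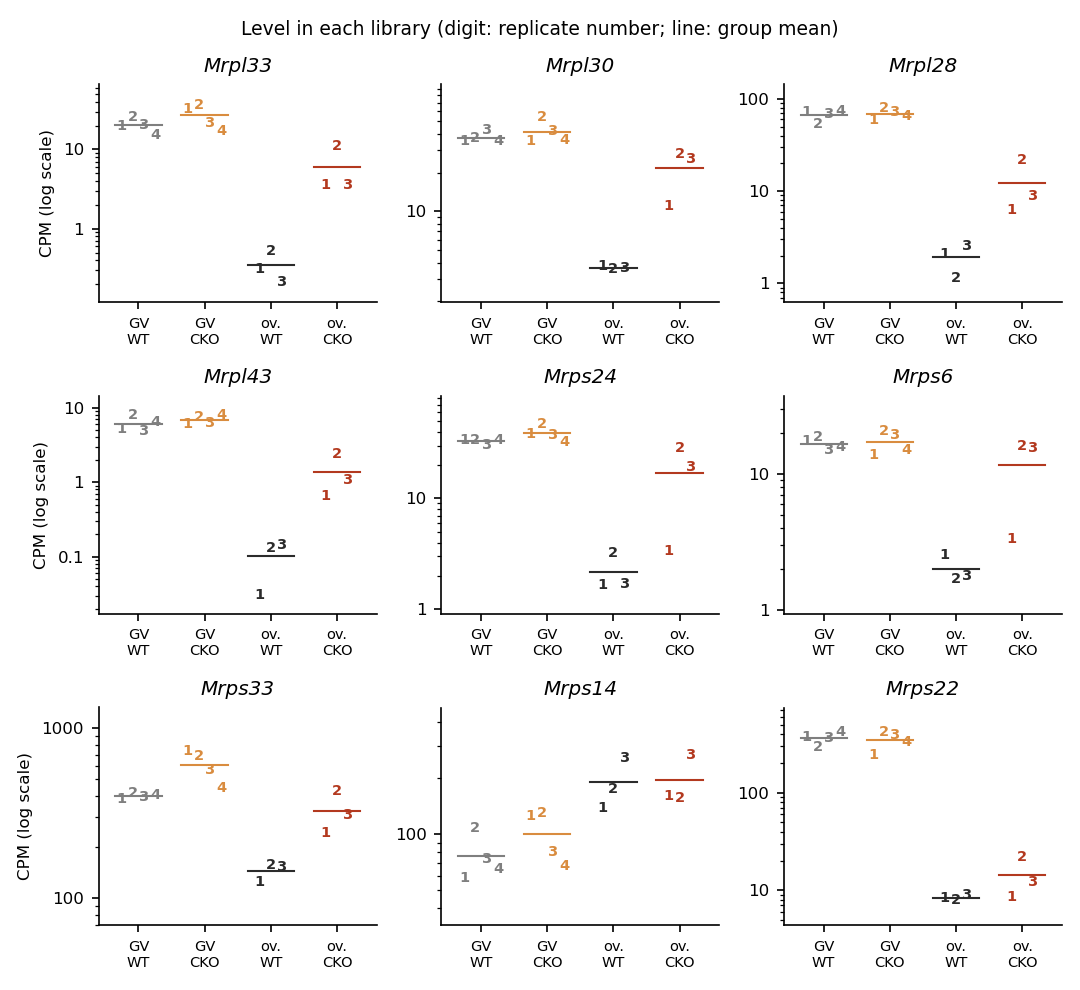
Level of 9 members in each library, in CPM on a log axis, with digits for the replicate number and lines for group means. For Mrpl33, Mrpl30, Mrpl28 and Mrpl43 all 3 ovulated CKO libraries lie above all 3 ovulated WT libraries and below the GV groups, and ovulated CKO 1 is the lowest and CKO 2 the highest of its group for 8 and 8 of the 9 genes.

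The number of calls depended on which libraries were included. In all 14 members that rose, CKO 1 was the lowest and CKO 2 the highest CKO library. Without CKO 2, 6 members were called, all among the 14 (Mrpl28, Mrpl30, Mrpl33, Mrpl55, Mrps6 and Mrps18c), and the median was 0.42. Without CKO 1 there were 28, 27 higher and 1 lower, without WT 1 there were 9, and without WT 3 and CKO 2 together there were 3. The counts over all genes moved too, from 774 higher and 168 lower to 308 and 33 without CKO 2, 1164 and 488 without CKO 1, 455 and 59 without WT 1, and 214 and 21 without WT 3 and CKO 2. The members' median was above 0 in each of these fits. The share of counts from genes with an implied length under 1000 bases was 9.22%, 9.55% and 12.4% in the WT and 10.6%, 14.9% and 15.3% in the CKO libraries.

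Members that rose were short. Their median implied length was 806.5 bases, and 13 of 14 were under 1000 bases, against 919 bases and 32 of 63 for those tested and not called. In this comparison the medians of other genes were also higher the shorter the genes, from a log2 fold change of 1.23 under 500 bases to -0.06 at 1500 to 2000 bases. Members under 500 bases had a median of 1.00 (10 members), those of 500 to 750 bases 0.85 against 0.79 in other genes, those of 750 to 1000 bases 0.81 against 0.47, and those of 1000 to 1500 bases 0.65 against 0.18. With the trend on length removed, the members' median was 0.08. Then 6 rose (Mrpl28, Mrpl30, Mrpl33, Mrpl43, Mrpl55 and Mrps24) and 2 fell, namely Mrpl2 and Mrps16, which are named for this call. That is 7.79% and 2.60% of the members, beside 4.36% and 1.98% of all genes.

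**Figure D4:**
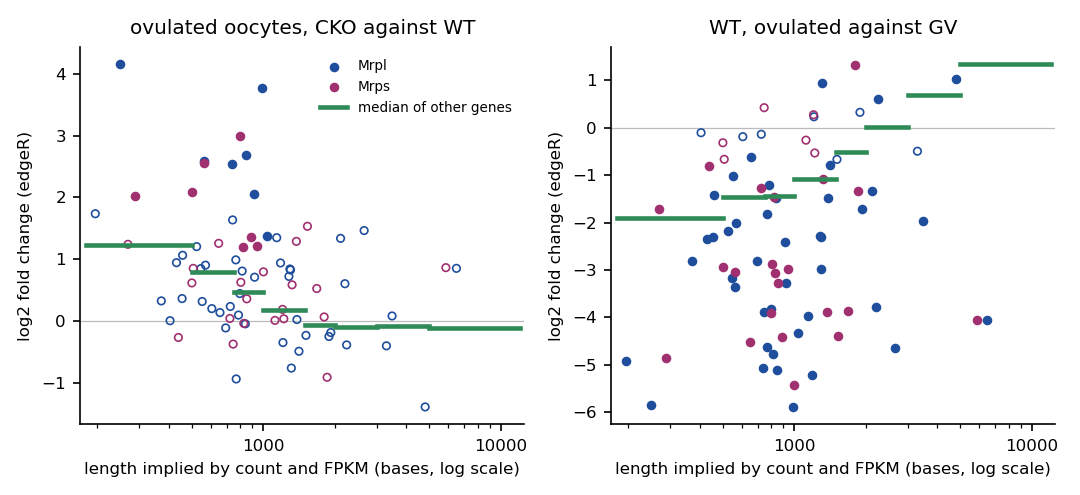
Log2 fold change of each member against the length implied by its counts and FPKM (log axis), for ovulated CKO against WT and for the change from GV to ovulated in WT, with Mrpl in blue, Mrps in magenta, filled points for adjusted p under 0.05 and green bars for the median of other genes in each length class. In the left panel the green bars descend from 1.23 to below 0 and 13 of the 14 filled points lie left of 1000 bases, and in the right panel most members lie below the bar of their class.

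The genotype difference changed with stage in 8 members. In the change with stage in CKO, 62 members had an unadjusted p under 0.05, beside 59.8% of all genes, and in WT 66, beside 69.5%. The interaction term, which asks whether CKO differs from WT by more in ovulated than in GV oocytes, was called above 0 for 8 of 78 members and below 0 for none, beside 3.17% and 0.0833% of all genes (3.26% in all). At an unadjusted p under 0.05 there were 22 members, beside 15.5% of all genes, and the median was 0.50 beside -0.07 for all genes. The 8 were Mrpl33 (3.71, SE 0.62, adjusted p = 0.00358, edgeR), Mrpl43 (3.57, SE 0.66), Mrpl28 (2.62, SE 0.50), Mrpl30 (2.41, SE 0.41) and Mrpl55 (2.14, SE 0.50) of the large subunit. Of the small subunit they were Mrps24 (2.71, SE 0.64), Mrps6 (2.48, SE 0.56) and Mrps12 (1.73, SE 0.46, adjusted p = 0.0490, edgeR). Mrpl30 and Mrpl33 were called in all 23 alternatives, Mrps12 in 4 of them. Without ovulated CKO 2, 4 members were called (Mrpl28, Mrpl30, Mrpl33 and Mrpl43), without ovulated CKO 1, 21, and without ovulated WT 2, 5. Without GV WT 2, CKO 1 and CKO 2 together there were again 4. Over all genes the calls were 126 above and 3 below 0 without ovulated CKO 2, and 905 and 101 without ovulated CKO 1. They were 215 and 9 without ovulated WT 2, and 224 and 5 without the 3 GV libraries. With the trend on length removed, the members' median turned to -0.12, and Mrpl28, Mrpl30, Mrpl33, Mrpl43 and Mrpl55 were called above 0 and Mrps16 below 0 (-1.33). Over all genes 304 were then called above and 38 below 0. Mrps14 had an interaction of -0.36 (SE 0.44) in the fit of all libraries.

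The medians of large and small subunit lay close together between genotypes. In ovulated CKO against WT both were 0.71, and leaving out 1 library at a time put Mrpl minus Mrps at -0.23 to -0.01. In GV oocytes that difference was -0.04. From GV to ovulated in WT the difference was 0.63, the Mrps median being the lower, and in CKO the Mrps median was the higher. Within the subunits, 5 of 30 large-subunit members with a bacterial counterpart rose in ovulated CKO and 2 of 21 without one (medians 0.54 and 0.81). In the small subunit it was 5 of 16 and 2 of 9 (medians 0.74 and 0.59). Mrps18a and Mrps18b were placed among the members without a counterpart, although they are paralogs of S18.

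Summed FPKM gave another view, since it is set by the abundant members. The Mrpl members took 0.242% to 0.255% of all FPKM in ovulated WT and 0.270% to 0.389% in ovulated CKO, and the Mrps members 0.160% to 0.195% and 0.235% to 0.406%. The ratio of Mrpl to Mrps was 1.56, 1.34 and 1.31 in ovulated WT and 1.15, 0.958 and 1.03 in ovulated CKO, without overlap. It was 1.41, 1.32, 1.41 and 1.40 in GV WT and 1.11, 1.24, 1.28 and 1.30 in GV CKO, also without overlap. Mrps33 alone held 17.1% to 23.2% of the Mrps sum in ovulated WT and 23.5% to 30.5% in ovulated CKO. With Mrps33 left out, a choice made after seeing its values, the ratio was 1.58 to 1.99 in ovulated WT and 1.35 to 1.62 in ovulated CKO, and the groups overlapped. In GV oocytes it was then 1.64 to 1.73 in WT and 1.56 to 1.62 in CKO. With Mrps36 left out as well, the GV groups overlapped (1.96 to 2.11 in WT and 1.87 to 2.04 in CKO). With subunits assigned by position in the ribosome, the ratio was 1.62 to 1.79 in GV WT and 1.32 to 1.68 in GV CKO, which overlapped, and 1.90 to 2.32 in ovulated WT and 1.30 to 1.74 in ovulated CKO, which did not.

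**Figure D5:**
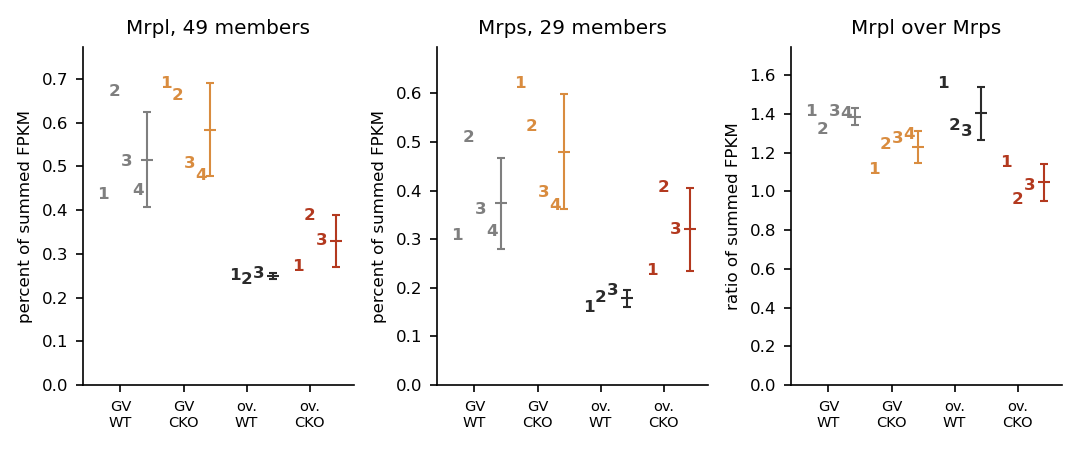
Share of summed FPKM taken by the 49 Mrpl and the 29 Mrps members, and the ratio of the sums, in each library, with digits for the replicate number and bars for mean and SD. All axes start at 0, the ovulated WT libraries are the lowest in both shares, and the ratio is lower in CKO than in WT at each stage.

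Other parts of the mitochondrial translation system were read from lists. Of the 5 subunits named otherwise, 2 rose in ovulated CKO, Chchd1 (1.57, adjusted p = 0.0193, edgeR) and Aurkaip1 (1.64, adjusted p = 0.0415, edgeR), and Dap3, Ptcd3 and Gadd45gip1 had 0.07, -0.11 and 0.79. Of 19 translation factors tested 1 rose, Slirp (2.65, adjusted p = 0.00418, edgeR), a partner of LRPPRC in stabilising mitochondrial mRNAs, and 0 fell, with a median of 0.12. With the trend on length removed, the calls of Chchd1, Aurkaip1 and Slirp were lost (0.40, 1.24 and 1.00). Of 20 assembly factors 0 rose and 1 fell, Gtpbp10 (-0.95, adjusted p = 0.0320, edgeR), a GTPase of large-subunit assembly, with a median of 0.23. For the interaction, Slirp (2.11), the release factor Mtrf1l (4.52) and the assembly GTPase Mtg2 (5.34) were called, and neither Mtrf1l nor Mtg2 passed the filter in the ovulated comparison. Of 84 cytosolic ribosomal proteins, whose mRNAs are short as well, 47 rose and 0 fell, with a median of 1.69, and with the trend on length removed it was 0.41. From GV to ovulated in WT 15 of 21 translation factors fell and 4 rose (median -1.92), 11 of 22 assembly factors fell and 5 rose (median -1.13), and the median of the 86 cytosolic genes was -3.90.

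Promoters were read for letters known from nuclear genes of mitochondria, those of NRF-1, of YY1 and of ETS factors such as GABP (CCGGAAGT), on both strands. Of the 78 members, 69 had a promoter of 250 bases before to 50 after the start in the RefSeq table (GRCm38.p6). The ETS letters were in 12 of 69 (17.4%), beside 6.80% of 14406 genes of the count tables and 4.31% of all 27025 genes with a promoter. The NRF-1 letters were in 3 (4.35%, beside 1.75% and 1.07%) and the YY1 letters in 5 (7.25%, beside 1.69% and 0.995%). The 4 members that rose in ovulated CKO and hold the ETS letters are shown on the gene's strand with those letters in capitals, in Mrpl33 across the start site and in Mrpl48 and Mrps18c in the opposite orientation:
Mrpl33 (chr5:31613937-31613966, +): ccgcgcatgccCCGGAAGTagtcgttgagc
Mrpl43 (chr19:45006443-45006482, -): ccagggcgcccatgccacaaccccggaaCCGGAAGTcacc
Mrpl48 (chr7:100583142-100583181, -): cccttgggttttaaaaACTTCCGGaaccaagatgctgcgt
Mrps18c (chr5:100798586-100798625, +): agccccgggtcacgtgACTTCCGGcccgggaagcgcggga
The letters were also in members that did not rise, such as Mrpl3 and Mrps26. Whether they were more frequent in the members that rose was not tested.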

How the data were processed

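Read counts per gene, here taken as estimated counts because they are not all whole, were deposited by the authors separately for GV and ovulated oocytes without normalisation, per the file headers. Among values above 0, 17.6% (GV) and 18.3% (ovulated) were not whole. The FPKM values deposited by the authors are scaled to length and depth, per the file headers. Reads were mapped to mm10, per the submitters' processing notes, and the sources used here do not name the aligner, counting program or strand setting.

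Counts were rounded and tested with edgeR 4.0.16 in R 4.3.3 (filterByExpr, TMM, quasi-likelihood F test, Benjamini-Hochberg over all genes of a comparison, called at adjusted p under 0.05). Each stage was fitted alone for CKO against WT, and the 4 groups together, on genes in both tables, for the changes with stage and the interaction. CPM printed per library are TMM-scaled over all 14 libraries, except that Mff means are scaled within a stage and marker sums are not TMM-scaled. A length per gene was implied by counts and FPKM, and 1 alternative removed a lowess trend on it. Pseudocounts for limma 3.58.1 on FPKM were 0.1 and 1, and DESeq2 was 1.42.0. On simulated counts, with 200 genes changed, the fits recovered 19.0% of changes of 1 on the log2 scale in the GV comparison, 16.8% in the ovulated comparison and 0.8% for the interaction, and 87.6%, 68.0% and 30.6% of changes of 2. False calls were 4.35%, 7.70% and 5.80% of calls. With 19.0% recovered, a count of 0 in GV oocytes does not exclude changes of 1, while most changes of 2 were recovered. The changed genes were drawn from all genes tested, at their mean level over all libraries of the fit. Recovery for the members alone was not measured.

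The members and lists were chosen with earlier results of these data known. Members were named where called in ovulated CKO against WT or for the interaction, with the 3 smallest p-values in GV oocytes, the 5 largest rises and falls called with stage in WT, the 3 highest and 3 lowest in GV WT, and Mrps30, Mrps36 and the Mrps18 paralogs. Of the other lists, genes called in the genotype or interaction comparisons were named. Depth limits members of few counts, such as Mrps34.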

Additional observations from a re-analysis of the deposited data

Results flagged for a closer look

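In 54 groups of 4 GV libraries, 3 held a highest or lowest library set apart by its gap to the next, and chance alone gives about 1 in 20 groups. Mrpl30 was at 36.9 CPM in GV WT 3, against 30.9 to 31.4 CPM in the other GV WT libraries. Mrpl48 was at 215 CPM in GV WT 2, against 294 to 307 CPM in the others. Mrpl45 was at 42.5 CPM in GV CKO 1, against 55.8 to 57.7 CPM in the others. These CPM are scaled within the GV stage.

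The genotype difference was larger in ovulated than in GV oocytes, by the interaction test, for 8 members. The log2 terms were 2.62 for Mrpl28, 2.41 for Mrpl30, 3.71 for Mrpl33, 2.14 for Mrpl55, 3.57 for Mrpl43, 2.48 for Mrps6, 1.73 for Mrps12 and 2.71 for Mrps24.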

How the results depend on the processing

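The count of 14 members called in ovulated CKO against WT became 9 with FPKM at a pseudocount of 1, 8 with the length trend removed, 3 without WT 3 and CKO 2, and 6 to 28 when 1 library was left out. Over all genes, 774 higher and 168 lower became 513 and 33 with FPKM at 1. They became 524 and 238 with the length trend removed, and 214 and 21 without WT 3 and CKO 2. The interaction count of 8 became 4 and 2 with FPKM at pseudocounts of 0.1 and 1, 4 without GV WT 2, CKO 1 and CKO 2, 4 without ovulated WT 3 and CKO 2 (added after seeing the data), and 4 to 21 with 1 library left out. Over all genes, 419 above and 11 below 0 became 185 and 6 with FPKM at 0.1 and 89 and 5 at 1. They became 224 and 5 without those GV libraries, and 149 and 8 without ovulated WT 3 and CKO 2. The GV count was 0 in every alternative run. The counts with stage, 65 in WT and 60 in CKO, were 60 to 66 and 55 to 61 with 1 library left out. The large minus small median in ovulated CKO against WT was 0.081 without the filter, -0.059 and -0.30 with FPKM at 0.1 and 1, -0.18 with the length trend removed, -0.084 without WT 3 and CKO 2, 0.095 with subunits by position, and -0.234 to -0.0125 with 1 library left out. In GV oocytes it was -0.0331 to 0.0260 with 1 library left out. With stage in WT it was 0.206 with FPKM at 1, 0.383 with the length trend removed, and 0.554 to 0.676 with 1 library left out. What caused these shifts was not tested. Removing the length trend changed the sign of 11 of the 65 members called with stage in WT and 7 of the 60 in CKO. Of the named members these were Mrps33 (0.16 in WT, 0.25 in CKO), Mrpl32 (0.73 and 0.28), Mrpl20 (0.26 in CKO) and Mrpl30 (0.074 in CKO). Of the values of named members under alternatives, 1311 kept direction and side of the threshold, 138 lost the call and 6 reversed.

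Whether replicate numbers pair the samples could not be told from 3 or 4 libraries per group. In deviations from group means, same-numbered libraries correlated at -0.338 to 0.447 in GV and 0.0227 to 0.201 in ovulated oocytes. In GV 1 of 4 and in ovulated oocytes 1 of 3 WT libraries correlated best with its own number. With the replicate number as a block, 0, 19, 67, 62 and 4 members were called in GV oocytes, ovulated oocytes, with stage in WT and in CKO, and for the interaction. In ovulated oocytes the 19 were 17 higher and 2 lower. Over all genes the block gave 1 higher and 1 lower in GV oocytes and 1068 and 562 in ovulated oocytes. With stage it gave 4030 and 4887 in WT and 3143 and 4299 in CKO, and for the interaction 254 and 8.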
